A study of Arabidopsis thaliana with 6 samples.

Results

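The untreated root meristem of Arabidopsis thaliana was described from the 3 Mock libraries, 3 of the 6 libraries in the series, chosen by their label. They came from seedlings of the Col-0 ecotype that were homozygous for a HYP2-GFP transgene, so every value below is from transgenic roots. Seedlings were 6 days old, and stood for 1 h in liquid MS medium with water, the mock treatment of a peptide experiment. The meristematic zone was cut out by hand under a fluorescence microscope with the GFP signal as the guide, and each library was made from 20 root sections, from 50 ng of total RNA that was amplified before sequencing. The promoter that drives the transgene is not given in the labels. According to the labels there were 3 RNA extractions, with no word on plates or days, and the spread between libraries may be partly technical.

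The root meristem lies just behind the root cap. A quiescent centre and the stem cells around it give rise to files of dividing cells, which leave the cell cycle and differentiate as they pass into the elongation zone. PLETHORA (PLT) transcription factors are highest near the stem cells and promote division, whereas SHORT-ROOT (SHR) and SCARECROW (SCR) pattern the ground tissue and maintain the quiescent centre. Dividing cells need new ribosomes and a supply of replication and mitotic proteins, which in plants are controlled in part through E2F and MYB3R transcription factors.

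The libraries held 8959505, 8976382 and 6451658 counts in Mock replicates 1, 2 and 3, over 30424 genes. A count of 3, taken as the floor of detection in a library, was worth 0.335, 0.334 and 0.465 CPM, counts scaled to a total of 1000000. Genes are given in CPM when libraries are compared. When genes are compared they are given as CPM divided by the length of their exons in kilobases, the level per kb. The median level per kb of the detected protein-coding genes was 13.5, and 10% of them lay above 66.8. Replicate 1 stood apart in part: the lists of the differentiating endodermis, of root hairs and of the young epidermis, the photosynthesis genes and the plasma membrane aquaporins summed highest there, whereas ribosomal protein genes summed lowest there. The endodermis, root hair and young epidermis lists summed lowest in replicate 3, where the ribosomal protein genes summed highest. Other tissue lists differed in their order. In replicates 1, 2 and 3 the root cap list summed to 131, 112 and 90.8 CPM, the stele list to 432, 303 and 339 CPM and the phloem list to 94.2, 68.2 and 76.6 CPM, each sum highest in replicate 1. By single genes, 4 of 7 root cap and 7 of 11 stele members were highest in replicate 3, against 2 and 4 in replicate 1. Of the phloem members 7 were highest in replicate 1 and 6 in replicate 3. For these and the later lists, 7754, 6395 and 6401 of all 27444 protein-coding genes were highest in replicates 1, 2 and 3. The differentiating xylem list summed to 67.6, 71.5 and 55.2 CPM, and the cortex list of 3 genes to 35.2, 57.4 and 62.8 CPM, lowest in replicate 1. The total of replicate 3 was the smallest. Values are therefore given for each library.

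At least 1 CPM in each of the 3 libraries, the criterion of detection used throughout, was reached by 15416 genes. Of these, 15233 were protein-coding, 55.5% of the 27444 protein-coding genes in the tables. Another 6894 protein-coding genes, or 25.1%, had 0 counts in all 3 libraries. The detected genes had longer exons, with a median of 1871 bp, than the genes with 0 counts, whose median was 924 bp. This difference is partly set by the criterion, since CPM is not divided by length and longer genes collect more counts. The detected share differed little between the 5 nuclear chromosomes, from 54.4% on chromosome 2 to 56.6% on chromosome 3. Among genes annotated as long non-coding RNA 29 of 2444 were detected, and among microRNA genes 7 of 325, as counts on the annotated precursor genes. Counts were concentrated in few genes: the 100 most abundant held 16.0, 16.1 and 18.5% of the counts, and 1325, 1169 and 1042 genes were enough to hold 50% of them, in replicates 1, 2 and 3.

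The most abundant nuclear entry was AT3G06355, annotated as a non-coding RNA, at chr3:14199575-14200076 in TAIR10.1. It had 20479, 12872 and 34095 CPM in replicates 1, 2 and 3. The annotated 5.8S ribosomal RNA gene AT3G41979 (chr3:14199753-14199916) lies inside it on the same strand, so these counts cover a piece of a ribosomal RNA precursor. The ribosomal RNA genes themselves were not analysed here. The entry ranked next, AT2G16586 (chr2:7190937-7192071), an uncharacterized gene, had 3472, 3294 and 4376 CPM. Its first 606 bases match the sequence 181 bp before an annotated ribosomal RNA gene at 98.8% identity at chr2:2920-3525, and likewise at chr3:14196889-14197496. Reads of the ribosomal RNA spacer may therefore match this gene over that stretch, and its value is uncertain. AT3G06355 was highest in replicate 3 and lowest in replicate 2, and it alone held 2.05, 1.29 and 3.41% of the counts.

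Of the 20 nuclear genes with the most CPM, 7 were for ribosomal proteins, which are described below as a group. ATMS1 (AT5G17920, chr5:5935038-5939865), a cobalamin-independent methionine synthase, had 2399, 3313 and 3639.8 CPM, and HOG1 (AT4G13940), the S-adenosylhomocysteine hydrolase that recycles the by-product of methylation, had 2199, 3022 and 2596 CPM. The cytosolic chaperone gene HSC70-1 (AT5G02500) had 2527, 2670.1 and 3022 CPM and varied less, with a standard deviation of log2 CPM of 0.13 between the 3 libraries. SHD (AT4G24190), the HSP90 chaperone of the endoplasmic reticulum, had 1285, 2437 and 1306 CPM and stood highest in replicate 2. The elongation factor 1 alpha gene AT5G60390, which delivers aminoacyl-tRNA to the ribosome, had 2042, 2722 and 3804 CPM. The other 3 genes of that family, AT1G07920, AT1G07930 and AT1G07940, followed the same order of libraries, and the 4 together had 3422, 4548 and 6468 CPM. AT1G07930 and AT1G07920 are 96.4% identical over 1543 bp, and AT1G07940 and AT1G07930 95.4% over 1619 bp. Their single values are uncertain, since reads may match more than 1 of them and the treatment of such reads is not given in the sources used here. AT5G60390 had no such match of 100 bp or more at 95% identity.

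Among the other genes in the 20 with the most CPM, AAC1 (AT3G08580), the mitochondrial ADP/ATP carrier, had 1974, 1919.9 and 2848 CPM. TCTP (AT3G16640), a growth-promoting protein conserved in eukaryotes, had 1847, 1926 and 2296 CPM, and its level per kb of 1999 ± 237 (SD, n = 3) was among the 10 highest. The glycolytic dehydrogenase gene GAPC1 (AT3G04120) had 1235, 1416 and 1992 CPM, highest in replicate 3. GRP7 (AT2G21660), a glycine-rich RNA-binding protein under cold and circadian control, had 1365, 2488 and 1462 CPM, highest in replicate 2. AT2G07698 and AT2G07727 also ranked here, with 3779, 2556 and 1444 CPM and 2227, 1504 and 1926 CPM, and AT2G07671 and AT2G07725 were among the 10 highest per kb. They belong to 80 nuclear genes, 78 of them on chromosome 2, whose transcripts match an organelle genome at 95% identity or more over at least 50% of their length. Their counts, 1.70, 1.28 and 1.35% of the total, may therefore include reads of organelle genes. Genes of the mitochondrial genome itself held 3.73, 3.12 and 3.05% and those of the chloroplast genome 2.50, 1.43 and 1.61% of the counts in replicates 1, 2 and 3.

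The 329 nuclear genes whose product is a ribosomal protein, without those named for plastids or mitochondria, held 7.04, 8.88 and 11.2% of the counts. At least 1 CPM in each library was reached by 293 of them, and 23 had 0 counts. Their median level per kb was 85.3, against 3.29 over all protein-coding genes, detected or not. Of the 100 nuclear genes with the highest level per kb and at least 300 bp of exon, 56 were of this group. AT4G27090, for a protein of the L14e family, was highest, at 1751, 2905 and 2823 per kb. AT5G20290, for a protein of the S8e family, followed with 1784, 2625 and 2452 per kb, and both were lowest in replicate 1. AT4G16720 of the L23/L15e family had 1483, 2407 and 1868 per kb, AT3G24830 of the L13 family 1524, 1902 and 2098 per kb and emb2386 (AT1G02780) of the L19e family 1175, 1512 and 2203 per kb. AT4G16720 overlaps a gene on the opposite strand that had 1412 counts in the 3 libraries together. RP1 (AT1G43170), for protein L3, had 1812, 2824 and 2651 CPM, and AT2G41840, for a protein of the S5 family, 1529.7, 1891 and 1869 CPM. Of the 306 members with any count, 34 were highest in replicate 1, 60 in replicate 2 and 212 in replicate 3. With TMM factors these numbers were 31, 58 and 217. Over all protein-coding genes 7754 were highest in replicate 1, 6395 in replicate 2 and 6401 in replicate 3. AT4G27090, AT5G20290, AT4G16720, RP1 and AT2G41840 were among the 60 highest in replicate 2.

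The promoters of ribosomal protein genes are known in plants for the telo box, AAACCCTA, and for site II elements, TGGGCC or TGGGCT. Both were searched on either strand in the 250 bases before the annotated gene start, so that no part of the gene's own transcript is included. The sequences of the 2 ribosomal protein genes with the highest level per kb are shown for these motifs, which are in capitals, from the TAIR10.1 genome and 5′ to 3′ on the strand of the gene. They lie at chr4:13595253-13595502 for AT4G27090 and at chr5:6853107-6853356 for AT5G20290, both on the minus strand.
AT4G27090: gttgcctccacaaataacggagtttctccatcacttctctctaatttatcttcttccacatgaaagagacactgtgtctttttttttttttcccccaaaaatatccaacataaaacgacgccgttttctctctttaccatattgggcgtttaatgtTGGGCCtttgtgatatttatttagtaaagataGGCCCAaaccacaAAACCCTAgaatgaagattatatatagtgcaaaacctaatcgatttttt
AT5G20290: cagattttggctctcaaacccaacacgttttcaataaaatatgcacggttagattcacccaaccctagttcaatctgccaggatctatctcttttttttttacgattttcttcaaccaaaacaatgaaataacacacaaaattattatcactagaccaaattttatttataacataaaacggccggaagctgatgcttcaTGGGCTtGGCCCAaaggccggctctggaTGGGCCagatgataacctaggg
AT4G27090 holds 2 site II elements and 1 telo box, and AT5G20290 holds 3 site II elements. A site II element was present in 57.4% of the promoters of the 329 ribosomal protein genes, against 19.2% of all 27443 protein-coding promoters. A telo box was present in 16.1% of the ribosomal protein promoters, against 4.49% of all. Among detected genes alone the telo box shares were 14.3% of 293 ribosomal protein promoters and 3.79% of 15233 protein-coding promoters. The site II shares among them were 57.7% and 24.9%. In detected protein-coding genes the share with a site II element was 19.0% in the 10% of genes with the lowest level per kb and 36.3% in the 10% with the highest, as the plot of motif shares by level shows. Among the 500 highest per kb with at least 300 bp of exon that are not ribosomal protein genes it was 36.2%. Genes with 0 counts had a site II element in 10.6% and a telo box in 7.12% of their promoters. A match is a description of the sequence and does not show that a factor binds there.

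**Figure D1:**
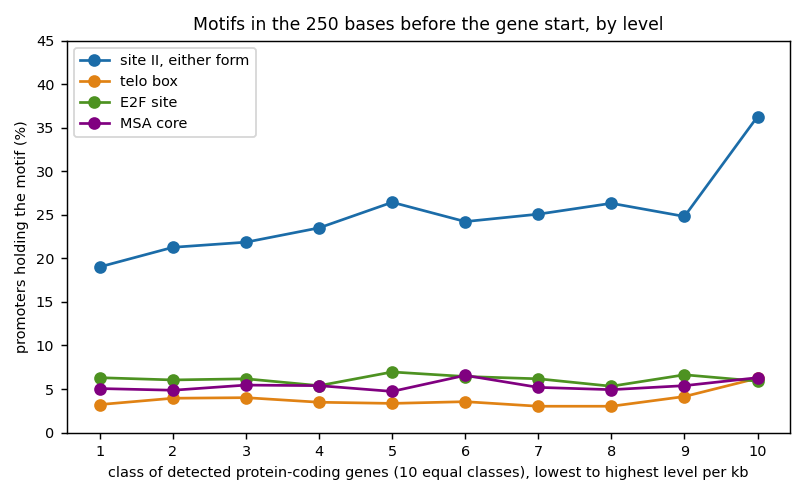
Share of promoters, in percent, that hold each motif in the 250 bases before the gene start, in the 15233 detected protein-coding genes split into 10 equal classes by mean level per kb over the 3 Mock libraries. The share with a site II element is 19.0% in the lowest class, between 21.3% and 26.4% in the next 8 and 36.3% in the highest, and the other 3 motifs stay between 3.02% and 6.96%.

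Genes that maintain the meristem spanned a wide range. Of 18 regulators of the stem cell niche and the meristem, 15 were detected, with a median level per kb of 14.5 over the 18. For this and the later lists, the share detected over all protein-coding genes was 55.5%. SCR (AT3G54220, chr3:20069987-20072878), the GRAS transcription factor of the quiescent centre and endodermis, was highest with 30.9, 52.4 and 56.0 per kb. PLT3 (AT5G10510, chr5:3315401-3320323), also named AIL6, followed with 40.9, 43.8 and 38.3 per kb and had the smallest spread of the list, a standard deviation of log2 CPM of 0.10. The PLATZ transcription factor RITF1 (AT2G12646), known as an early target of RGF1 signalling, had 26.3, 34.3 and 46.4 per kb without the peptide. UPB1 (AT2G47270), a bHLH factor that limits meristem size through peroxidases, had 43.6, 13.3 and 26.9 per kb, more than 3 times as much in replicate 1 as in replicate 2. The ranges of these 4 neighbours in the order overlapped between libraries. SHR (AT4G37650), the mobile activator of SCR, had 18.8, 29.0 and 31.0 per kb.

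The other PLT genes were much lower than PLT3. PLT1 (AT3G20840), PLT2 (AT1G51190) and BBM (AT5G17430), also named PLT4, which act with PLT3 in the stem cell niche, had 5.99, 7.67 and 3.01, 5.12, 2.58 and 4.77, and 4.52, 4.02 and 7.08 per kb. No library of these 3 genes reached the lowest library of PLT3. PLT5 (AT5G57390) had 23, 3 and 3 counts in replicates 1, 2 and 3, PLT7 (AT5G65510) had 1, 0 and 0 and WOX5 (AT3G11260), the homeobox gene of the quiescent centre, had 0, 0 and 2. These 3 members did not pass the criterion, and the WOX5 and PLT7 counts were under the floor of 3 in each library. A gene that is active in a few cells per root may lie below what this depth can show, but this was not tested for these genes.

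**Figure D2:**
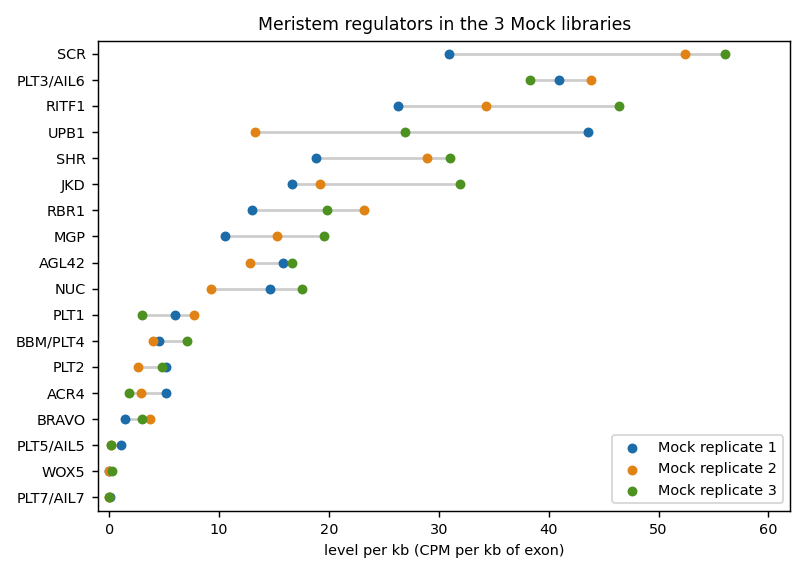
Level per kb (CPM per kilobase of exon) of the 18 meristem regulators, 1 row per gene from the highest to the lowest mean, with 1 point per Mock library and a grey line over the range. SCR, PLT3 and RITF1 lead, PLT1, BBM and PLT2 lie below 8, and PLT5, WOX5 and PLT7 lie near 0.

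The 5 leucine-rich repeat receptor kinases that perceive RGF peptides were all detected in the untreated tissue. RGI4 (AT5G56040) was highest with 72.9, 74.1 and 73.6 per kb, and its 3 libraries were nearly equal. RGI2 (AT3G24240) had 45.6, 49.6 and 63.3, RGI1 (AT5G48940) 26.0, 26.5 and 29.2 and RGI5 (AT1G34110) 10.2, 13.4 and 12.7 per kb, and the libraries of RGI4, RGI2, RGI1 and RGI5 lay apart from each other in this order. RGI3 (AT4G26540) was lowest on average and most spread, with 4.04, 7.90 and 13.8 per kb, and its range overlapped that of RGI5.

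Replication and mitotic genes were all present. Of 20 S-phase and replication genes, 20 were detected, with a median level per kb of 21.6. Their sum was 1019.6, 1129 and 1119.7 CPM in replicates 1, 2 and 3. PCNA1 (AT1G07370, chr1:2263037-2264553), the sliding clamp of DNA polymerase, led with 66.1, 84.7 and 92.0 per kb, ahead of its sister gene PCNA2 (AT2G29570) with 39.6, 48.1 and 54.8 per kb. TSO2 (AT3G27060), a small subunit of ribonucleotide reductase, had 54.3, 76.8 and 84.4 per kb and RNR1 (AT2G21790), the large subunit, 30.2, 37.7 and 29.1 per kb. PCNA1, TSO2 and PCNA2 were each lowest in replicate 1, while RNR1 was highest in replicate 2. PCNA2 overlaps a gene on the opposite strand with 2215 counts in all. Members with a mean of at least 20 CPM, 15 of the 20, had a median standard deviation of log2 CPM of 0.233, against 0.335 over all such genes. The same median was 0.436 for 10 meristem regulators and 0.433 for 15 mitotic genes. It was 0.301 for 10 G1 regulators and 0.349 for 3 CDK inhibitor and endocycle genes. Whether a list differs from other genes in spread was not tested.

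All 25 genes of the G2 phase and mitosis were detected as well, at lower levels, with a median of 13.5 per kb. The cyclin gene CYCB1;2 (AT5G06150, chr5:1859279-1861703) had 26.2, 24.7 and 43.9 per kb, and the plant-specific mitotic kinase gene CDKB2;1 (AT1G76540) had 34.5, 31.2 and 22.7 per kb. KNOLLE (AT1G08560), the syntaxin of the forming cell plate, had 23.4, 26.5 and 29.3 per kb, and CYCA2;4 (AT1G80370), an A-type cyclin, had 35.8, 10.3 and 26.7 per kb with replicate 2 more than 2-fold below the others. The list was highest in replicate 3 for 14 genes, in replicate 1 for 7 and in replicate 2 for 4, and its sum was 640.4, 587 and 879 CPM. Over all protein-coding genes 6401 were highest in replicate 3, 7754 in replicate 1 and 6395 in replicate 2. The libraries of most neighbours in the list, ordered by level per kb, overlapped, so the order of single genes is not resolved. CDC20.1 and CDC20.2, which are 97.0% identical over 1366 bp, are uncertain because reads may match both. CYCB1;2 is 97.7% identical to AT1G34460 over 390 bp, so reads of that stretch may match either gene.

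**Figure D3:**
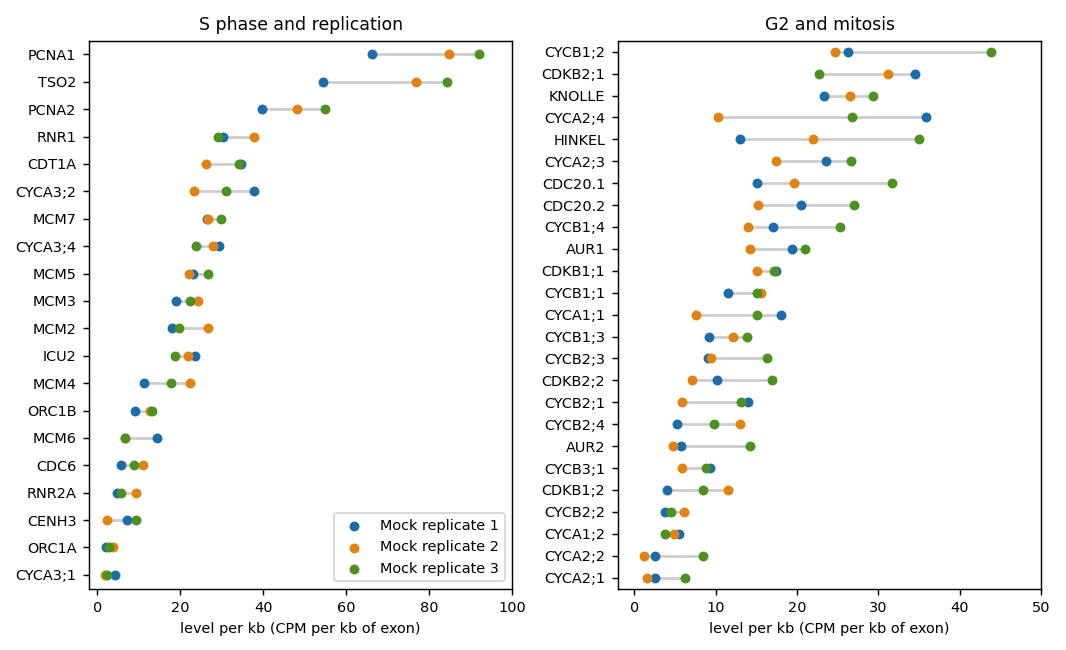
Level per kb of 20 S-phase and replication genes (left) and 25 genes of G2 and mitosis (right), 1 row per gene and 1 point per Mock library, with a grey line over the range. All genes lie above 0 in all libraries, PCNA1 and TSO2 lead on the left with means of 80.9 and 71.8, and the mitotic genes end at 31.6.

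The cell-cycle lists differed in the motifs before their genes. The MSA core, searched as CNAACGG, is the element bound by MYB3R factors in mitotic promoters, and the E2F site, searched as TTTNNCGC, is the element of S-phase promoters. The promoters of the highest mitotic gene, of the highest S-phase gene and of the highest S-phase gene with an E2F site are shown with the matches of all searched motifs in capitals. They lie at chr5:1861704-1861953 on the minus strand, at chr1:2262787-2263036 on the plus strand and at chr2:3527501-3527750 on the minus strand.
CYCB1;2: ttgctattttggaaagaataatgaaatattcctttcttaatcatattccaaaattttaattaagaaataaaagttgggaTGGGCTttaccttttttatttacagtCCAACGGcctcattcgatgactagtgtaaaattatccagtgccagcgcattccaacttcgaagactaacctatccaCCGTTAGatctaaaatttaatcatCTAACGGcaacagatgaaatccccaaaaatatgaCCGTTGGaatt
PCNA1: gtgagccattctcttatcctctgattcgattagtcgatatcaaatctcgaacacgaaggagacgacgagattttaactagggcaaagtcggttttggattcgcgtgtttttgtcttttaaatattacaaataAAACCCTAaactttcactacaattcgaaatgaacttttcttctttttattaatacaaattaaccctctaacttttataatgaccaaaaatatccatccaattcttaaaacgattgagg
MCM5: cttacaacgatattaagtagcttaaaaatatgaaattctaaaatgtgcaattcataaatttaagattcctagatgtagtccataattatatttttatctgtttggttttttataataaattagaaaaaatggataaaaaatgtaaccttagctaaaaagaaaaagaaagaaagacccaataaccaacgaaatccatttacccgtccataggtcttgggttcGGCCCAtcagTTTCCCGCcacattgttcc
CYCB1;2 holds 4 MSA cores and 1 site II element, PCNA1 holds 1 telo box, and MCM5 holds 1 E2F site beside 1 site II element. The MSA core was found before 9 of the 25 mitotic genes, or 36%, before 1 of the 20 S-phase genes, and before 4.50% of all protein-coding genes. Those 9 were CYCB1;2, HINKEL, CYCB1;1, CYCA1;1, CYCB1;3, CYCB2;3, CYCB2;1, AUR2 and CYCB2;2. The E2F site was found before 8 of the 20 S-phase genes, or 40%, before 2 of the 25 mitotic genes and before 5.86% of all. MCM2, MCM3, MCM4, MCM5 and MCM6, subunits of the replicative helicase, were among those 8. A site II element preceded 11 of the S-phase genes and 4 of the mitotic genes. CDKB2;1 and TSO2 held none of the searched motifs in this window.

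Regulators of entry into the cycle were mostly detected, 18 of 20. CYCD2;1 (AT2G22490) led with 35.0, 55.7 and 35.7 per kb, followed by the central kinase gene CDKA;1 (AT3G48750) with 42.4, 35.1 and 35.2 per kb. CYCD3;3 (AT3G50070) had 31.5, 53.3 and 25.7 and CYCD3;2 (AT5G67260) 33.2, 27.0 and 34.2 per kb, and both D-type cyclins overlapped CDKA;1 in range. The highest values of CYCD2;1 and CYCD3;3 were in replicate 2. CYCD6;1 (AT4G03270), the cyclin of the formative ground tissue division downstream of SHR and SCR, had 6, 9 and 40 counts and missed the criterion in replicate 1. It overlaps a gene on the opposite strand with 1573 counts. CYCD7;1 (AT5G02110), known from the stomatal lineage, had 0 counts in each library, and the floor of 3 counts sets an upper limit of 0.335, 0.334 and 0.465 CPM, for counting error only.

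Inhibitors of cyclin-dependent kinases and genes of the endocycle, the replication without division that follows the meristem, were lower, with 12 of 14 detected and a median level per kb of 5.22. SIM (AT5G04470), a founding member of the SIAMESE-related inhibitors, had 36.9, 30.8 and 40.9 per kb. CCS52A1 (AT4G22910), an activator of the anaphase-promoting complex that promotes endocycle onset, had 25.6, 34.3 and 21.1 per kb and the related CCS52B (AT5G13840) had 28.3, 17.9 and 31.0 per kb. CCS52B overlaps a gene on the opposite strand with 6871 counts. SMR1 (AT3G10525) had 13.6, 16.9 and 15.6 per kb, and the members linked to the DNA damage response, SMR7 (AT3G27630) and SMR5 (AT1G07500), had 9, 5 and 0 and 0, 0 and 0 counts.

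Markers of the tissues that the root tip holds were also listed. No other root zone is among these libraries, so their detection cannot show which zone was cut. Over all protein-coding genes 55.5% were detected. Of 7 root cap genes 6 were detected. RCPG (AT1G65570), a polygalacturonase of the root cap, had 22.5, 34.6 and 4.54 per kb, with replicate 3 more than 2-fold below the others, and ARL2 (AT1G59980), which acts in gravity signalling, had 13.0, 7.88 and 6.90 per kb. CEL5 (AT1G22880), a cellulase of shedding cap cells, had 5.90, 7.06 and 11.5 per kb, and the maturation factor gene BRN1 (AT1G33280) had 7.38, 1.13 and 3.81 per kb. Its partner BRN2 (AT4G10350) was not detected, with 17, 5 and 62 counts. Whether cap cells were cut away to a like degree in each section is not given in the labels.

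Of 9 genes that pattern the young epidermis, 7 were detected. The single-repeat MYB gene CPC (AT2G46410), which moves between cells and promotes hair fate, had 60.4, 54.5 and 25.4 per kb, lowest in replicate 3. WER (AT5G14750), the MYB factor of the non-hair cell files, had 44.1, 15.0 and 14.9 per kb, with replicate 1 more than 2-fold above the others. EGL3 (AT1G63650), a bHLH partner of WER, had 16.4, 8.47 and 7.23 per kb and TTG1 (AT5G24520), the WD40 protein of the same complex, 7.90, 9.13 and 9.40 per kb. ETC1 (AT1G01380) and TRY (AT5G53200), which resemble CPC, had 20, 0 and 10 and 4, 8 and 9 counts.

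The cortex list held 3 genes. AT1G09750, an aspartyl protease gene used as a cortex marker, had 18.2, 30.9 and 32.9 per kb and overlaps a gene on the opposite strand with 2170 counts. C/VIF2 (AT5G64620), an invertase inhibitor, had 5.09, 4.87 and 6.78 per kb. CO2 (AT1G62500) was not detected by the criterion, with 8, 30 and 22 counts, and was lowest in replicate 1.

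Genes of the stele and procambium were detected in 11 of 11 cases, from a mean of 1.35 to 27.6 per kb. LHW (AT2G27230), the bHLH factor that sets vascular division, had 22.1, 29.8 and 30.9 per kb. WOL (AT2G01830), also named AHK4, the cytokinin receptor of the stele, had 43.0, 17.5 and 14.3 per kb, with replicate 1 more than 2-fold above the others. The class III homeodomain genes PHB (AT2G34710) and CNA (AT1G52150) had 16.1, 13.3 and 17.8 and 12.8, 8.28 and 9.46 per kb.

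Genes of xylem and phloem were detected in part, 55.6% and 43.8% of the members, against 55.5% of all protein-coding genes. The xylem share was thus near that of all genes and the phloem share below it. In the xylem 5 of 9 were detected: XCP2 (AT1G20850), a cysteine protease, had 28.2, 24.8 and 13.6 per kb, ACL5 (AT5G19530), the thermospermine synthase of vessel precursors, 8.29, 11.9 and 13.0, XCP1 (AT4G35350) 2.21, 4.10 and 4.72 and the secondary wall cellulose synthase gene CESA7 (AT5G17420) 1.97, 1.70 and 1.18 per kb. ACL5 overlaps a gene on the opposite strand with 14927 counts, XCP1 with 1399 and CESA7 with 483. The vessel master regulators VND7 (AT1G71930) and VND6 (AT5G62380) had 1, 0 and 2 and 0, 1 and 0 counts, and MYB46 (AT5G12870) and CESA8 (AT4G18780) had 2, 10 and 1 and 5, 6 and 6.

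In the phloem 7 of 16 were detected. SMXL5 (AT5G57130), which acts early in phloem formation, had 8.90, 6.50 and 4.33 per kb, and the receptor kinase gene BAM3 (AT4G20270) of the early sieve element lineage had 5.32, 4.27 and 5.99 per kb. APL (AT1G79430), the MYB factor of phloem identity, had 7.03, 2.08 and 2.32 per kb, highest in replicate 1, and OPS (AT3G09070), a polar protein of sieve element precursors, 1.59, 3.05 and 3.85 per kb. The remaining 9 members, BRX, PEAR1, PEAR2, SUC2, CLE45, SEOR1, NAC086, NAC045 and NEN4, did not pass the criterion. The companion cell sucrose transporter gene SUC2 (AT1G22710) had 16, 6 and 1 counts, and NEN4 (AT4G39810), a nuclease of enucleating sieve elements, had 0 in each library.

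Markers of the differentiating endodermis and of root hairs differed between libraries. In every library 22.2% and 50% of the members were detected, against 55.5% of all protein-coding genes. In the list of the differentiating endodermis 2 of 9 genes were detected in every library, MYB36 (AT5G57620), the regulator of Casparian strip genes, with 27.9, 5.46 and 8.83 CPM, and GSO1 (AT4G20140), a receptor kinase, with 35.7, 30.1 and 33.2 CPM. Without replicate 3 the number was 6. GSO1 overlaps a gene on the opposite strand with 4962 counts. The Casparian strip scaffold genes CASP1 to CASP5 lay from 14 to 118 counts in replicate 1, from 1 to 28 in replicate 2 and at 0 or 1 in replicate 3. The peroxidase gene PER64 (AT5G42180) had 85, 25 and 0 counts and ESB1 (AT2G28670) 0, 3 and 0. The list summed to 115, 47.0 and 42.2 CPM, and 6 of its 9 members had 0 counts in replicate 3.

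Root hair genes followed the same order. Of 10 members 5 were detected, or 8 without replicate 3, led by RBOHC (AT5G51060), the NADPH oxidase of hair growth, with 98.6, 51.4 and 30.8 CPM and by the hair fate gene RHD6 (AT1G66470) with 22.9, 11.0 and 13.9 CPM. COBL9 (AT5G49270) had 23.6, 20.4 and 8.52 CPM and LRX1 (AT1G12040), a wall protein of growing hairs, 15.4, 17.8 and 1.39 CPM. Products and regulators of later hair cells, PRP3 (AT3G62680), EXPA18 (AT1G62980), EXPA7 (AT1G12560), RSL4 (AT1G27740) and RSL2 (AT4G33880), had 84, 65, 47, 41 and 25 counts in replicate 1 and 0 in replicate 3. The sum of the list was 191, 112 and 55.8 CPM, with 8 of 10 members highest in replicate 1 and 0 highest in replicate 3.

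Nuclear photosynthesis genes, which mark green tissue, were present in all libraries, 9 of 10 detected. The summed level was 1423, 242 and 679 CPM in replicates 1, 2 and 3. RBCS1A (AT1G67090), a small subunit of Rubisco, had 366, 112 and 159 CPM, CAB1 (AT1G29930), a light-harvesting protein, 297, 56.1 and 166 CPM, RCA (AT2G39730), the Rubisco activase, 271, 23.5 and 105 CPM and RBCS3B (AT5G38410) 100.5, 15.0 and 60.9 CPM. Of the other members, CAB3, RBCS2B, LHCB3, CAB2 and RBCS1B were detected, with means from 6.42 to 35.8 per kb, and LHCB2.1 (AT2G05100) missed the criterion in replicate 2, with 67.3, 0.891 and 11.9 CPM. Of the 10, 9 were highest in replicate 1 and 10 lowest in replicate 2, and all 9 members with a mean of at least 20 CPM had a library more than 2-fold from both others. CAB1 and its nearest copy are 96.1% identical over 823 bp, and RBCS2B and RBCS3B 95.1% over 638 bp, so their single values are uncertain. Genes of the chloroplast genome, also highest in replicate 1, held 2.50, 1.43 and 1.61% of the counts. Whether light, tissue outside the meristem or another source gave these differences was not tested.

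**Figure D4:**
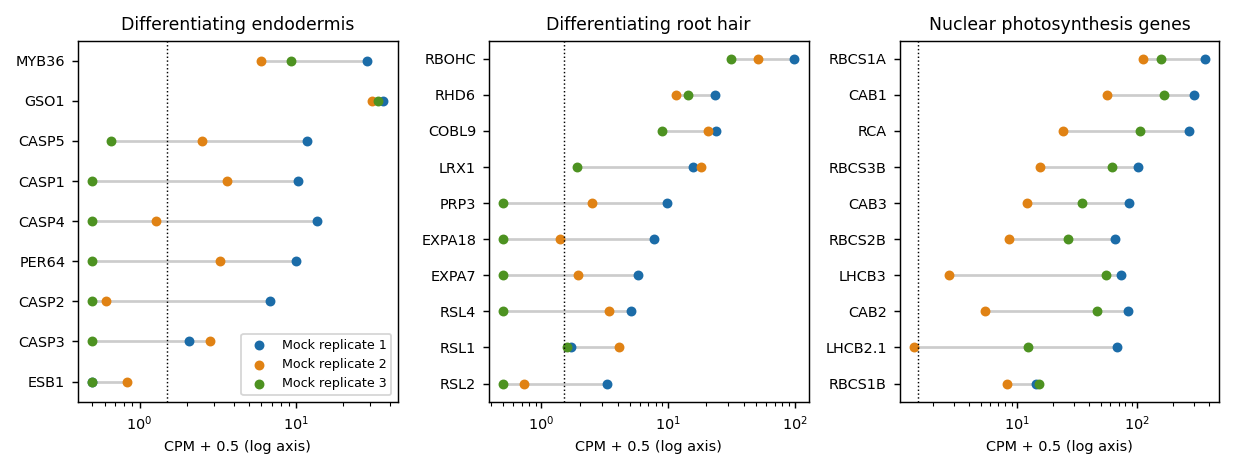
CPM + 0.5 on log axes for 9 genes of the differentiating endodermis, 10 of differentiating root hairs and 10 nuclear photosynthesis genes, 1 row per gene and 1 point per Mock library, with a grey line over the range and a dotted line at 1 CPM, the criterion of detection. Replicate 3 lies at or near 0 CPM for the CASP genes, PER64, PRP3, EXPA7, EXPA18, RSL4 and RSL2, and replicate 2 is lowest for all 10 photosynthesis genes.

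Across all 8919 genes with a mean of at least 20 CPM, 878 had a library more than 2-fold away from both others on the log2(CPM + 0.5) scale, 9.84% of them. Replicate 1 was the higher one for 278 genes and the lower one for 82, replicate 2 for 85 and 156, and replicate 3 for 71 and 265, with some genes counted for 2 libraries. Plasma membrane aquaporin genes, which admit water into expanding and mature cells, were among the genes higher in replicate 1 in 6 of the 9 cases at that level, against 3.12% of all genes. PIP1B (AT2G45960) had 1300.0, 595 and 515 CPM, PIP1A (AT3G61430) 699, 188 and 85.2 CPM and PIP2A (AT3G53420) 547, 121 and 117 CPM. All 9 were highest in replicate 1, under each of the 4 scalings tried. Class III peroxidases, which modify the cell wall, gave 5 of 17, among them AT2G37130 with 377, 84.7 and 44.5 CPM and AT5G64100 with 204, 56.1 and 9.61 CPM. Other peroxidase genes did not follow: PRXR1 (AT4G21960) had 918, 1069 and 1029 CPM and RCI3 (AT1G05260) 251, 269 and 255 CPM. AT2G34060 was instead higher in replicate 2, with 15.2, 34.0 and 11.5 CPM. The genes higher in replicate 1 also included 5 of 17 cysteine/histidine-rich and 4 of 14 WRKY genes. The families named here and those described for replicates 2 and 3 were picked after their values were seen.

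The genes higher in replicate 2, 0.953% of all, included 3 of 16 genes of the heat shock protein family and 2 of 11 of the protein disulfide isomerase family. The endoplasmic reticulum chaperone genes BIP1 (AT5G28540) and BIP2 (AT5G42020) had 719, 1775 and 682 CPM and 777, 2070.3 and 855 CPM, and the protein disulfide isomerase genes PDIL2-2 (AT1G04980) and PDIL2-3 (AT2G32920) had 44.8, 140.1 and 57.0 CPM and 110.5, 225 and 103 CPM. Other members of both families did not follow: PDIL5-4 (AT4G27080) had 134, 88.2 and 78.6 CPM, PDIL5-1 (AT1G07960) 48.8, 54.4 and 54.2 CPM and the mitochondrial chaperonin gene HSP60 (AT3G23990) 511, 579.5 and 599 CPM. The genes higher in replicate 3, 0.796% of all, included 18 ribosomal protein genes of the 251 at that level, and none of the 251 was higher in the other 2 libraries. Those lower in replicate 3, 2.97% of all, included 3 of 4 proline-rich extensin-like genes, 3 of 7 MLO genes and 3 of 11 xyloglucan endotransglucosylase genes. Among list members with a mean of at least 20 CPM, a library stood apart in this way for 1 of 15 S-phase genes, 1 of 15 mitotic genes, 0 of 10 G1 regulators, 0 of 3 CDK inhibitor and endocycle genes and 0 of 10 stem cell and meristem regulators, against the 9.84% of all genes. With so few members these counts do not set the lists apart from other genes. The S-phase gene was MCM6 (AT5G44635), higher in replicate 1 with 41.6, 19.6 and 19.7 CPM, and the mitotic gene was CYCA2;4.

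Of the lists for shoot and floral meristems, seed storage and the male germ line, 1 gene was detected, GCS1 of the male germ line. None of 10 genes of shoot and floral meristems was detected, and 7 of them, STM, WUS, CLV3, LFY, AP1, AG and SEP3, had 0 counts in all 3 libraries. The floral organ genes AP3 (AT3G54340) and PI (AT5G20240) had 3, 19 and 3 and 2, 7 and 2 counts and KNAT1 (AT4G08150) 0, 0 and 1. AP3 was above 1 CPM in replicate 2 and below it in the other libraries. None of 10 seed storage genes was detected, with the most counts for EM6 (AT2G40170) at 0, 7 and 0, and CRA1, CRU2, SESA2, SESA3 and SESA4 at 0 throughout. Of 3 genes of the male germ line, DUO1 and MGH3 had 0 counts, whereas GCS1 (AT4G11720), a gamete fusion protein, was detected with 1.23, 1.34 and 8.52 CPM, from 11, 12 and 55 counts.

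Some families had no detected member. Protein-coding genes were grouped by product name into 935 families of at least 5 members, and in 55 of them no member reached 1 CPM in each library. These 55 held 639 genes, 533 of them with 0 counts in all libraries, and in 12 of the 55 every member had 0 counts. Over all 27444 protein-coding genes 55.5% were detected and 25.1% had 0 counts. Short genes collect fewer counts, and the exon lengths of these families were not compared. The largest 5 of the 55, by product name, began with 65 genes of plant self-incompatibility proteins, 51 named ECA1 gametogenesis related and 49 plant thionins. The other members of the 5 were 28 cysteine-rich repeat secretory proteins and 27 SCR-like proteins. SCR-like proteins are relatives of the pollen self-incompatibility ligand and unrelated to SCARECROW. Of these 5, the family named ECA1 gametogenesis related had 0 counts throughout. Another 24 genes were F-box proteins with an associated interaction domain and 23 were named ECA1 gametogenesis, all at 0 counts. Grouping by product name splits some families, so a group with no detected member can be part of a larger family. Under a similar name, 13 of 153 genes for F-box and associated interaction domains were detected. Of 8 genes named thionin without the word plant, 2 were detected. In 20 of the 55 families a member had a mean of at least 1 CPM with under 1 CPM in at least 1 library, up to 7.06 CPM among the 7 glyoxal oxidase-related genes and 6.73 CPM among the 20 cation/H+ exchangers. In the defensin-like family 1 of 87 members was detected. At the other end, every member was detected in 98 families, for example all 20 genes of the AAA-type ATPase family.

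The spread between the 3 libraries was several times the counting error. At a mean of at least 20 CPM the median standard deviation of log2(CPM + 0.5) was 0.335, with quartiles of 0.209 and 0.497, where counting alone would give a median of 0.0715. In edgeR the common biological coefficient of variation was 0.376 over 15198 genes. The spread depended on the level: the median was 0.926 for 3296 genes between 1 and 5 CPM, 0.559 for 5170 genes between 5 and 20 CPM, 0.357 for 6739 genes between 20 and 100 CPM, 0.275 for 1950 genes between 100 and 500 CPM and 0.320 for 230 genes above. Counting alone would give medians of 0.324, 0.155, 0.0808, 0.0406 and 0.0192 in these classes, so part of the rise at low levels is counting error. Across the 8919 genes the Pearson correlation of log2 values was 0.870 for replicates 1 and 2, 0.861 for 1 and 3 and 0.886 for 2 and 3, where the genes are not independent and the tissue is the same. Of these genes 11.8% had a highest library within 1.2-fold of the lowest, and 22.8% differed by more than 2-fold.

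The 10 genes with the smallest spread at a mean of at least 50 CPM were AtNug2 (AT1G52980), TPR7 (AT5G21990), AT3G22290, RBP47B (AT3G19130), RGI4, HEN4 (AT5G64390), DL3 (AT1G59610), AT2G41410, AT1G74250 and PUR4 (AT1G74260). AtNug2, a nucleolar GTP-binding protein of ribosome assembly, had 205, 205 and 205 CPM. TPR7, a tetratricopeptide repeat protein, had 73.4, 73.1 and 73.6 CPM, RBP47B, an RNA-binding protein, 188, 187 and 186 CPM and PUR4, an enzyme of purine synthesis, 180.5, 181 and 184 CPM. Their standard deviations of log2 CPM, up to 0.0157, were below the 0.0305 to 0.0693 that counting alone gives, so their order is not resolved. With TMM factors or DESeq2 size factors 0 of the 10 stayed among the 10 smallest, although all remained within the lowest 2.08% of genes at that level, and with totals over nuclear genes 6 did. HEN4 overlaps a gene on the same strand with 2976 counts.

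Genes in common use as references for quantitative PCR were detected in 17 of 17 cases but differed in their spread. ACT2 (AT3G18780), an actin, had 1251, 1244 and 1171 CPM, and 1.93% of the genes above 20 CPM had a smaller standard deviation. The gene SAND (AT2G28390) had 61.3, 69.2 and 68.8 CPM, with 6.50% of genes below it. The elongation factor gene AT5G60390, GAPC1 and the actin gene ACT8 (AT1G49240) were the others among the 4 highest per kb, and stood at 68.8%, 53.8% and 66.5%. ACT8 had 1365, 1152 and 762 CPM. UBQ10 (AT4G05320), a polyubiquitin gene, had 166, 86.8 and 96.9 CPM and stood at 75.2%, and UPL7 (AT3G53090), a ubiquitin ligase gene, had 36.2, 15.2 and 20.8 CPM and stood at 86.0%. The last 2 and SAND were singled out after their values were seen.

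**Figure D5:**
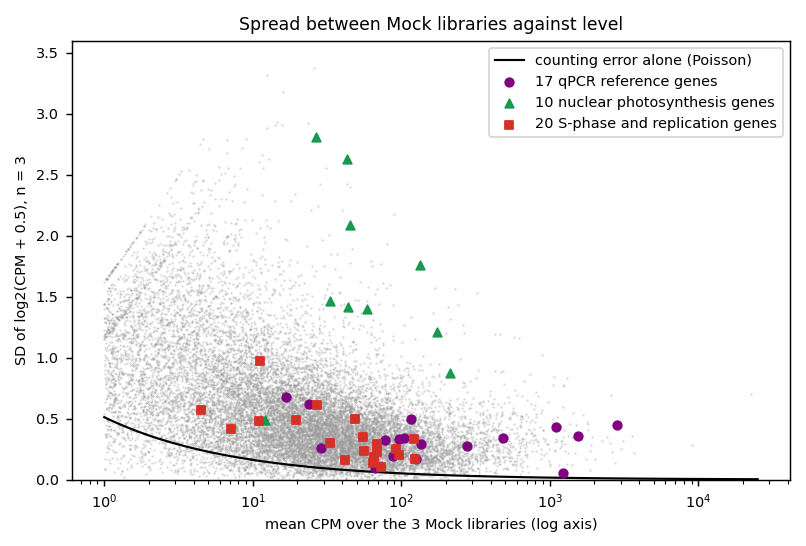
Standard deviation of log2(CPM + 0.5) between the 3 Mock libraries against the mean CPM on a log axis, for all genes with a mean of at least 1 CPM (grey), with reference genes, photosynthesis genes and S-phase genes marked and the counting error drawn as a line. Most genes lie above the line, the photosynthesis genes reach 2.81, and the 15 S-phase genes above 20 CPM have a median of 0.233.

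The 10 genes with the largest spread were TIP2;2 (AT4G17340), ELF4 (AT2G40080), LHCB2.1, LHCB3, AT3G54500, HSFA6B (AT3G22830), LHB1B1 (AT2G34430), FLS1 (AT5G08640), GAPA-2 (AT1G12900) and AT2G10940. TIP2;2, a tonoplast aquaporin, had 69.9, 7.80 and 0.155 CPM and thus resembled the plasma membrane aquaporins in being highest in replicate 1. Replicate 2 alone was high for ELF4, a component of the evening complex of the circadian clock, with 6.47, 64.1 and 0.620 CPM, for the heat shock factor gene HSFA6B with 17.4, 108 and 3.25 CPM and for the flavonol synthase gene FLS1 with 5.80, 122 and 7.13 CPM. Replicate 2 alone was low for AT3G54500 with 48.1, 1.67 and 44.0 CPM and for GAPA-2, a chloroplast glyceraldehyde-3-phosphate dehydrogenase gene, with 49.1, 2.23 and 30.7 CPM. The light-harvesting genes LHB1B1 and LHCB3 had 68.3, 1.89 and 14.3 CPM and 73.0, 2.23 and 54.7 CPM, and AT2G10940, for a lipid-transfer family protein, had 90.2, 3.79 and 25.4 CPM. The clock phase or the time of day at which each sample was taken is not given in the labels, and its part in these values was not tested.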

How the data were processed

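For each of the 3 Mock libraries the authors deposited raw read counts per gene in 1 table, with 0 rows that named no gene. TopHat2 2.1.1, HTSeq, DESeq2 and the build TAIR10 were used, per the submitters' processing notes. Strand use and the handling of multiply matching reads were not given in the sources used here, so near-identical and overlapping genes are uncertain. Gene positions, exon lengths and product names came from RefSeq's TAIR10.1 annotation, which matched 30214 of 30424 identifiers, all but the 88 chloroplast and 122 mitochondrial genes.

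Counts were scaled to CPM by each library's total, and divided by the union of exons for levels per kb. Detection meant at least 1 CPM in each library. The floor of 3 counts covers counting error only, since reads without molecular identifiers are not independent molecules. Standard deviations are of log2(CPM + 0.5). With 1 group of samples no test was run and no p-value is given. The common coefficient of variation was estimated in edgeR 4.0.16 (R 4.3.3), and the functions were tested on simulated data. Copies among transcripts were those with a BLAST 2.17.0 match of 100 bp or more at 95% identity.

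Named genes were the 20 nuclear genes with the most CPM, the 10 with the highest level per kb among those with at least 300 bp of exon, the 10 with the smallest spread above 50 CPM, the 10 with the largest above 20 CPM, and from each list of more than 6 genes the 4 highest per kb and the undetected. The limit of 300 bp left out the highest protein-coding value, 6101 per kb. The 18 lists hold 221 genes. The members and lists were chosen with earlier results of these data known. SHR, PLT1, PLT2, BBM, MYB36, GSO1, PCNA2, the RGF receptors, the ribosomal protein group, the families that differed between libraries and the motifs were added after values were seen.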

Additional observations from a re-analysis of the deposited data

How the results depend on the processing

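No paired analysis was possible because 1 group of libraries was described and no test was run. The number of detected genes stayed within 1.5 times of 15416 under each alternative, from 12333 at 5 CPM in each library to 17671 at 1 count in each, and was 15342 after thinning to the shallowest library. The 55 families with no detected member became 19 when at least 10 members were asked for, by construction, and were otherwise 48 to 55. The mean share of the 100 most abundant genes, 16.9%, was 15.5% over nuclear genes only and 15.0% without AT3G06355, an alternative chosen after seeing the data. The median standard deviation of 0.335 was 0.398 at a mean of at least 5 CPM and 0.457 with no filter, and 0.261 to 0.286 when 1 library was left out. With fewer libraries this median tends to be lower at the same spread, so the last drop is partly by construction. The coefficient of variation of 0.376 was 0.522 with no filter and 0.354 to 0.384 when 1 library was left out. The 937 instances of a gene over 2-fold from both other libraries became 297 at a mean of at least 50 CPM, which keeps fewer genes. The 5 detected root hair genes became 3 at 10 counts in each library. Leaving out 1 library gave 5 to 8 root hair genes and 2 to 6 genes of the differentiating endodermis, the larger numbers without replicate 3. Depth limits what can be said of genes near the floor, WOX5 among them.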
